A study of Mus musculus with 8 samples.

Results

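The macrophage markers described here were 10 genes, Cd68, Csf1r, Adgre1, Cx3cr1, Lyz2, C1qa, C1qb, C1qc, Mrc1 and Cd163, out of 56980 gene identifiers counted in the jejunal mucosa of male mice. They were chosen by name as genes commonly used to mark mucosal macrophages, and each symbol matched 1 Ensembl identifier. Read counts came from 4 Adipoq-F2-KO libraries, from mice in which floxed alleles of the fatty acid receptor FFA2 were recombined by an Adiponectin-Cre transgene, and from 4 libraries of FFA2 fl/fl littermates, which carried the floxed alleles without Cre (floxed controls). Both genotypes had been co-housed on chow until 12 weeks of age and then received a Western diet with 10% fructooligosaccharides for 2 weeks under thermoneutral housing. Because adiponectin is a product of adipocytes, the deletion was directed to fat cells and not to macrophages or the epithelium. The mucosa was scraped from the opened jejunum, so each library held epithelium together with whatever immune, stromal and muscle cells came away with it.

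Resident macrophages of the intestinal mucosa lie beneath the epithelium and are replenished largely from circulating monocytes. They depend on signalling through the receptor encoded by Csf1r, take up dying cells and bacteria, and produce the initiating component of the classical complement pathway. Deeper in the gut wall, macrophages around vessels and in the muscle layer carry more of the scavenger receptors CD163 and CD206 (Mrc1), while dendritic cells share several of the markers at lower levels.

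Library totals ranged from 6007654 to 21712776 counts, with 3 libraries under 10000000 (floxed 3, Adipoq-F2-KO 3 and Adipoq-F2-KO 4). The labels number the libraries within a genotype without stating that each came from a separate mouse, so p-values measure the spread between these libraries. Ffar2, which encodes FFA2, held 2 to 18 counts in a floxed library and 3 to 13 in an Adipoq-F2-KO library, and since its deletion was directed to adipocytes its level in mucosa did not check the genotype labels. Genes that reached 10 counts in 4 or more libraries, 15986 in all, were fitted by DESeq2 with genotype as the only term, and 6 of them had an adjusted p below 0.05. DESeq2 gave no p for 8 of the 15986, because of an outlying count, and these stay in the denominator of the shares given here. The libraries also differed widely in smooth muscle transcripts. The 9 smooth muscle markers summed to between 269.6 and 21230 normalized counts in floxed mucosa and between 508.4 and 7407 in Adipoq-F2-KO mucosa, and floxed 3 was the highest.

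Macrophage transcripts were a small part of these libraries. The 10 markers together took 237 to 1131 raw counts in a floxed library and 312 to 1052 in an Adipoq-F2-KO library, or 15.3 to 52.1 and 33.6 to 63.3 CPM (counts scaled to the library total). Each of the 10 was detected in at least 6 of the 8 libraries. Among all tested genes, the 9 markers that passed the count minimum stood between the 16.2th and the 51.7th percentile of mean count. Cd163 did not pass it and was not tested. The number of macrophages and the RNA per macrophage cannot be told apart in such bulk samples.

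The 9 tested markers all had a higher estimate in Adipoq-F2-KO than in floxed mucosa, but none had an adjusted p below 0.05 (DESeq2, adjusted p = 0.9998 for each), the threshold passed by 0.0375% of tested genes. With edgeR and limma-voom the count was 0 as well. Log2 fold changes, given throughout as Adipoq-F2-KO over floxed, ran from 0.27 for Cd68 to 0.95 for Lyz2, with a median of 0.61 over the 9 markers against -0.01 over all tested genes, of which 48.5% had a value above 0. At an unadjusted p below 0.05, 1 of the 9 markers was higher (Lyz2), where 1.65% of all tested genes were higher at that threshold. The genotypes overlapped for every marker, while 2.12% of tested genes showed no overlap. The 95% intervals of 7 of the 9 log2 fold changes still included 1, a doubling. Floxed 4 was the lowest of the 8 libraries for 8 markers and shared the lowest value, 0, for Cd163. The median log2 fold change was 0.26 without floxed 4, and 0.43 in the 5 libraries above 10000000 counts.

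**Figure D1:**
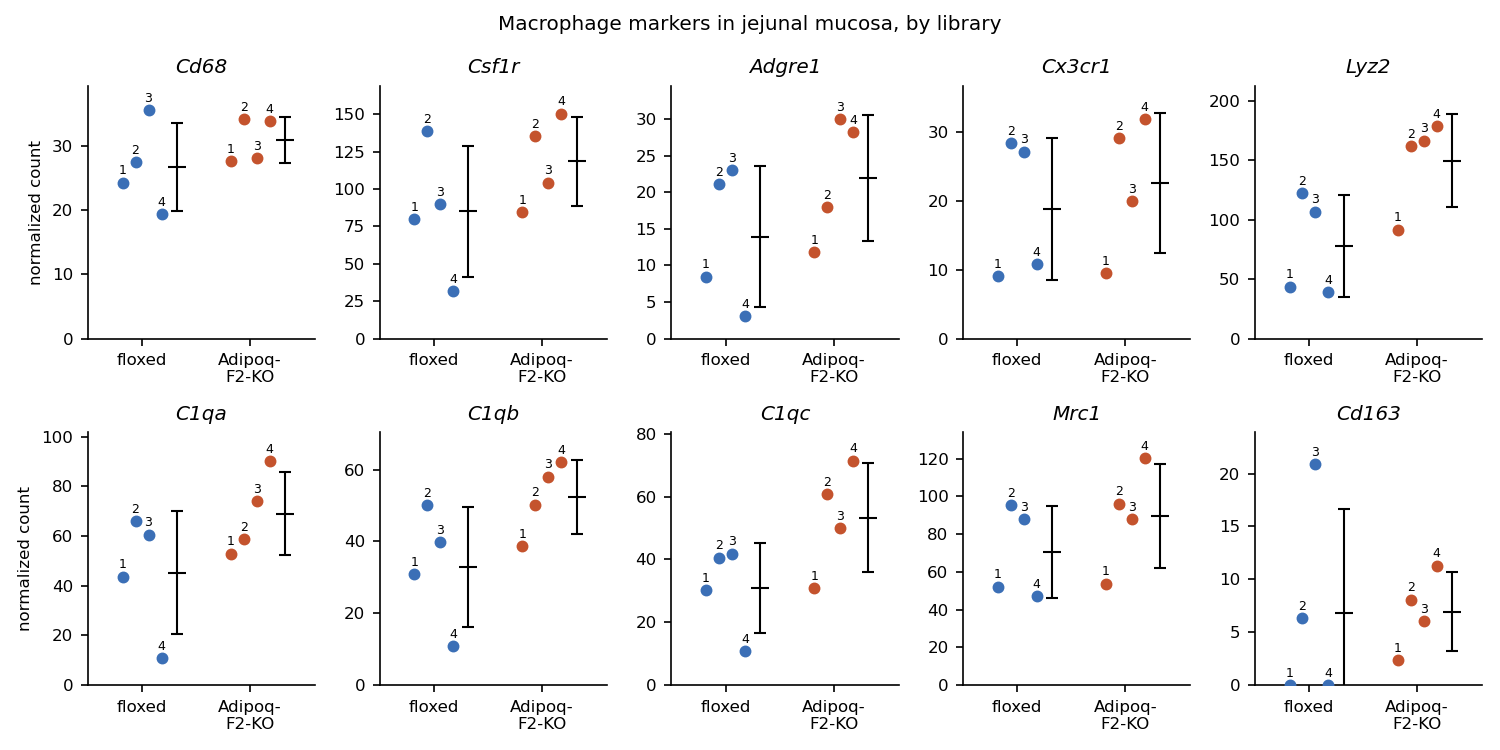
Normalized counts (raw counts over the library's DESeq2 size factor) of the 10 markers, with 1 point per library numbered by replicate, floxed controls in blue and Adipoq-F2-KO in orange, and the mean and SD of 4 libraries as bars (cut at 0 for Cd163). The genotypes overlapped in every panel, and floxed 4 was lowest or tied for lowest in 9 of 10.

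Csf1r (ENSMUSG00000024621, chromosome 18) encodes the receptor for colony-stimulating factor 1 and interleukin 34, on which macrophage survival depends. Normalized counts of 80.0, 138.6, 89.9 and 31.7 were found in floxed libraries 1 to 4 and 84.5, 135.2, 104.1 and 150.4 in Adipoq-F2-KO libraries 1 to 4. Floxed 2 lay between Adipoq-F2-KO 2 and 4, the highest libraries of that genotype, and floxed 4 stood below the rest. The log2 fold change was 0.47 ± 0.38 (SE), with a 95% interval from -0.28 to 1.22. It was 0.19 without floxed 4 and 0.84 without floxed 2. Exons of Csf1r overlap those of Hmgxb3 on the opposite strand in the GENCODE annotation, Hmgxb3 held 3544 counts over the 8 libraries against 936 for Csf1r, and the strand setting of the counting was not given in the sources used here, so the Csf1r level is uncertain.

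Adgre1 (ENSMUSG00000004730, chr17:57358691-57483527, GRCm38) encodes the F4/80 antigen, the classical surface marker of mouse macrophages. It stood at 8.48, 21.1, 23.0 and 3.10 normalized counts in floxed mucosa and at 11.8, 17.98, 30.03 and 28.2 in Adipoq-F2-KO mucosa, the lowest of them resting on 4 reads. The 2 shallow Adipoq-F2-KO libraries were the highest of the 8. The log2 fold change of 0.67 had an SE of 0.60, the widest of the 9, and its 95% interval ran from -0.51 to 1.86. It was 0.32 without floxed 4 and 1.04 without floxed 2.

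Cx3cr1 (ENSMUSG00000052336, chr9:119901616-120069879) encodes the fractalkine receptor, a mark of macrophages that sit close to the epithelium. Floxed libraries held 9.09, 28.5, 27.2 and 10.8 normalized counts and Adipoq-F2-KO libraries 9.47, 29.1, 20.02 and 31.96. Both genotypes thus had libraries near 10 and libraries near 30, and the difference between genotypes (log2 fold change 0.28 ± 0.54 SE) was smaller than its error and ranged from 0.03 without floxed 1 to 0.62 without floxed 2.

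Cd68 (ENSMUSG00000018774, chr11:69664213-69666153), a lysosomal membrane protein of phagocytes, varied least between libraries. It was at 24.2, 27.4, 35.5 and 19.3 normalized counts in floxed mucosa and 27.6, 34.1, 28.03 and 33.8 in Adipoq-F2-KO mucosa. The highest library was a floxed control, and the log2 fold change was 0.27 ± 0.32 (SE), or 0.14 without floxed 4.

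Lyz2 (ENSMUSG00000069516) encodes lysozyme M, the bacterial cell wall hydrolase of myeloid cells. Beside it on chromosome 10 lies Lyz1, which encodes the lysozyme of Paneth cells, the antimicrobial cells of the crypt base, and the gene pair spans chr10:117277331-117292868 on the minus strand (GRCm38). Their coding sequences are 447 bases each and differ at 22 positions, an identity of 95.1%. To show how far reads of 75 bases can tell them apart, coding bases 58 to 132, the 75-base stretch with the most differences, are printed for both genes from the GENCODE transcripts, with the 12 differing bases in capitals. They lie in the first coding exon, at chr10:117282111-117282185 for Lyz2 and chr10:117292707-117292781 for Lyz1.
Lyz2: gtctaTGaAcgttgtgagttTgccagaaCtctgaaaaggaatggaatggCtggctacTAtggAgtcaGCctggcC
Lyz1: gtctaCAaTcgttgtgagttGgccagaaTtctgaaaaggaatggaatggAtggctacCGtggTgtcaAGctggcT
Of the 1242 windows of 75 bases in the Lyz2 transcript, 74 (5.96%) also occurred in Lyz1. At 50 bases the shared part was 15.4% of 1267 windows. Only exact matches were counted, and how many Lyz1 reads were counted as Lyz2 was not tested.

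Lyz2 stood at 43.6, 122.3, 106.6 and 38.7 normalized counts in floxed libraries and 91.6, 161.8, 166.2 and 178.6 in Adipoq-F2-KO libraries. Adipoq-F2-KO 2, 3 and 4 were above every floxed library, and Adipoq-F2-KO 1 fell between the lower and the upper floxed pair. The means were 77.8 ± 42.9 (SD, n = 4) and 149.5 ± 39.3 (SD, n = 4). The fold change was 1.93, with a 95% interval from 1.14 to 3.26, an unadjusted DESeq2 p of 0.0140 and an adjusted p of 0.9998. That unadjusted p was 0.0532 without floxed 1, 0.0512 without floxed 4 and 0.0897 in the 5 deeper libraries, and the lowest adjusted p over 17 alternatives was 0.0850, with the smooth muscle level as a covariate.

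Lyz1 was far more abundant, at 2340 to 9529 raw counts per library against 50 to 261 for Lyz2. Lyz2 therefore made up 0.750%, 2.46%, 1.42% and 1.45% of the reads of both genes in floxed mucosa and 1.95%, 3.82%, 3.43% and 2.26% in Adipoq-F2-KO mucosa. Wilson 95% intervals, which cover counting error only, ran from 0.596% to 0.943% for the lowest of these shares and from 3.39% to 4.30% for the highest. The genotypes overlapped in this share, since floxed 2 was above Adipoq-F2-KO 1 and 4. Lyz1 itself had a log2 fold change of 0.03 ± 0.29 (SE) with a 95% interval from -0.53 to 0.59, and floxed 4 was the lowest library for both genes.

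C1qa (ENSMUSG00000036887), C1qb (ENSMUSG00000036905) and C1qc (ENSMUSG00000036896) encode the A, B and C chains of C1q, the recognition molecule of the classical complement pathway, whose chains assemble in equal number. The genes lie within 18.7 kb on the minus strand of chromosome 4, at chr4:136880129-136898803 (GRCm38), in the order C1qb, C1qc, C1qa by coordinate.

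C1qa was at 43.6, 65.9, 60.6 and 10.8 normalized counts in floxed libraries and 52.9, 58.9, 74.1 and 90.2 in Adipoq-F2-KO libraries. C1qb was at 30.9, 50.1, 39.7 and 10.8 in floxed and 38.7, 50.2, 58.1 and 62.0 in Adipoq-F2-KO libraries. C1qc was at 30.3, 40.6, 41.8 and 10.8 in floxed and 30.8, 60.8, 50.1 and 71.4 in Adipoq-F2-KO libraries. In each of the 3 genes floxed 4 was lowest, with 14 reads, Adipoq-F2-KO 4 was highest, and Adipoq-F2-KO 1 lay among the floxed libraries.

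The log2 fold changes were 0.61 ± 0.45 for C1qa, 0.66 ± 0.42 for C1qb and 0.80 ± 0.43 for C1qc (SE). Without floxed 4 they fell to 0.26, 0.34 and 0.50. C1qc had the second-smallest unadjusted DESeq2 p of the markers, 0.0644, and that p was 0.168 without floxed 4 and 0.0313 without floxed 3. Per length of merged exons, C1qa made up 46.9% ± 4.6 (SD, n = 4) of the trio in floxed libraries and 46.8% ± 3.2 (SD, n = 4) in Adipoq-F2-KO libraries. C1qb made up 34.5% ± 3.0 and 34.0% ± 1.7, and C1qc 18.6% ± 2.3 and 19.2% ± 3.5. The proportions of the chains thus differed between genotypes by less than the spread between libraries. Their size depends on the length used, which for C1qc was 1931 bases of merged exons against 1203 for the longest transcript. With longest transcripts, mean levels per length over the 8 libraries were 12.3 for C1qa, 8.78 for C1qb and 7.86 for C1qc.

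**Figure D2:**
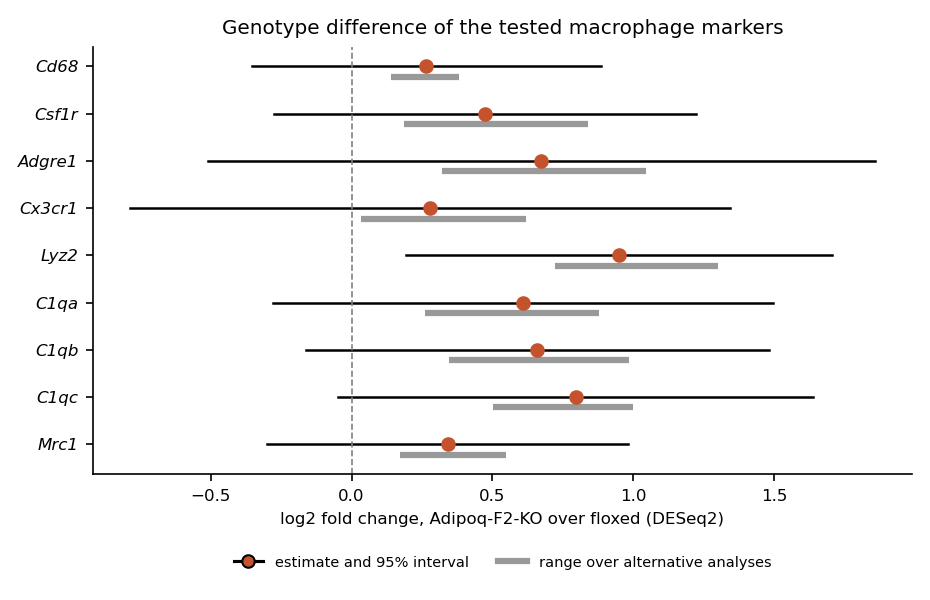
Log2 fold change of the 9 tested markers (points) with 95% intervals (thin lines), and the range of the estimate over alternative tests, filters, covariates and left-out libraries (grey bars). The estimates ran from 0.27 for Cd68 to 0.95 for Lyz2 and the alternatives from 0.03 for Cx3cr1 to 1.30 for Lyz2, and all 95% intervals but that of Lyz2 crossed 0.

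Mrc1 (ENSMUSG00000026712, chr2:14229392-14332057) encodes the mannose receptor CD206. Its normalized counts were 52.1, 95.4, 87.8 and 47.2 in floxed libraries and 53.7, 96.1, 88.1 and 120.3 in Adipoq-F2-KO libraries. Floxed 4 was the lowest library and Adipoq-F2-KO 4 the highest, while the other 3 libraries of each genotype spanned nearly the same range. Its log2 fold change was 0.34 ± 0.33 (SE), 0.17 without Adipoq-F2-KO 4, 0.19 without floxed 4 and 0.55 without floxed 2.

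Cd163 (ENSMUSG00000008845, chr6:124304656-124330527) encodes the haemoglobin scavenger receptor. Raw counts were 0, 12, 10 and 0 in floxed libraries and 3, 13, 3 and 6 in Adipoq-F2-KO libraries, or 0, 6.33, 20.9 and 0 against 2.37, 8.06, 6.01 and 11.3 normalized counts. A count of 0 allows up to 3 reads, or 0.157 CPM in floxed 1 and 0.194 CPM in floxed 4. Cd163 was the marker with the smallest difference between group means, 6.81 ± 9.86 and 6.93 ± 3.74 (SD, n = 4), and its highest library was floxed 3, the library richest in smooth muscle transcripts.

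A match to the letters of a binding motif was looked for in the promoters, 250 bases before to 50 after each start in RefSeq on GRCm38.p6, because the myeloid transcription factor PU.1 binds purine-rich sequence with a GGAA core. Entries existed for 7 of the 10 markers (not for Csf1r, Adgre1 and C1qa). On either strand AGGAAGT occurred in 4 of the 7 and in 9.35% of all 32851 promoters, and GAGGAA in 4 of the 7 (C1qb, C1qc, Cd68 and Mrc1) and in 28.3% of all. The end of GAGGAA and the start of AGGAAGT share letters, so that 1 site can hold both, and both were chosen after the promoters had been seen. The 60 bases around each AGGAAGT match are printed to show where these myeloid genes hold the same letters. Each lies on the strand opposite to the gene, so that it reads ACTTCCT, in capitals, along the gene.
C1qb, chr4:136886220-136886279, minus strand: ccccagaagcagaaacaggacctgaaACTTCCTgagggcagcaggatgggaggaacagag
C1qc, chr4:136893076-136893135, minus strand: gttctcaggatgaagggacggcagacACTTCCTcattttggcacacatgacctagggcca
Mrc1, chr2:14229177-14229236, plus strand: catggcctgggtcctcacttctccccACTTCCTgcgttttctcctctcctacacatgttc
Lyz2, chr10:117282339-117282398, minus strand: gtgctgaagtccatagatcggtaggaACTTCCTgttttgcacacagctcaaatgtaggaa
The first capital was 53 bases before the start for C1qb, 100 for Lyz2, 195 for C1qc and 211 for Mrc1. Spi1, the gene of PU.1, was at 10.3, 21.6, 16.7 and 9.29 normalized counts in floxed libraries and 10.3, 28.5, 36.0 and 26.3 in Adipoq-F2-KO libraries, with a log2 fold change of 0.78 ± 0.50 (SE) and an adjusted p of 0.9998.

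Levels of different genes were compared per length, as TPM (counts over merged exon length, scaled within a library), over all 8 libraries. Lyz2 was the highest at 23.0 ± 10.9 (SD, n = 8), followed by C1qa at 14.6 ± 5.6 and C1qb at 10.4 ± 3.9. Cd68 at 6.13 ± 1.26, C1qc at 5.82 ± 2.64 and Csf1r at 4.75 ± 1.93 came next. Below them stood Mrc1 at 3.35 ± 1.081, Adgre1 at 1.46 ± 0.71, Cx3cr1 at 1.23 ± 0.59 and Cd163 at 0.326 ± 0.311. Within a library, C1qa was above C1qb, Mrc1 above Adgre1 and Cx3cr1 above Cd163 in 8 of 8 libraries. Lyz2 exceeded C1qa, C1qb exceeded Cd68, C1qc exceeded Csf1r and Csf1r exceeded Mrc1 in 7 of 8. Cd68 and C1qc were not ordered (Cd68 higher in 5 of 8), nor were Adgre1 and Cx3cr1 (6 of 8), and with the length of the longest transcript C1qc, at 7.86, stood above Cd68, at 5.26.

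**Figure D3:**
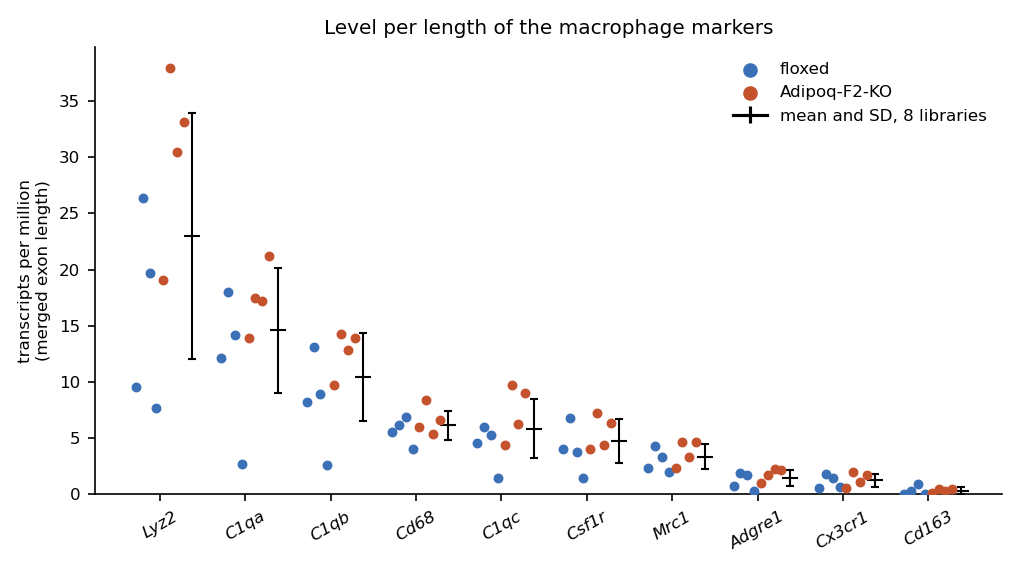
TPM (transcript level per length of merged exons, scaled within a library) of the 10 markers in 4 floxed (blue) and 4 Adipoq-F2-KO (orange) libraries, with the mean and SD of all 8 as bars. Lyz2 was the highest, at 23.0 on average, and Cd163 the lowest, at 0.326.

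Ratios between markers were compared within libraries. The summed C1q chains were 5.96 ± 1.18 times Csf1r per length in floxed and 7.01 ± 1.07 times in Adipoq-F2-KO libraries (SD, n = 4), ranges that overlapped. Ptprc, the leukocyte common antigen CD45, was at 586 to 998 normalized counts in floxed and 924 to 1064 in Adipoq-F2-KO libraries. Relative to Ptprc, Csf1r stood at 10.4% ± 5.4 and 11.8% ± 3.1, and Lyz2 at 8.95% ± 4.08 and 14.9% ± 4.0 (ratio of normalized counts, SD, n = 4). Adipoq-F2-KO 2, 3 and 4 were again above all floxed libraries in the Lyz2 ratio, and Adipoq-F2-KO 1, at 8.93%, was not.

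The markers varied together across the 8 libraries. All 45 pairs of markers had a positive Pearson's r on the log2(normalized count + 1) scale, with a median of 0.861, and 45 pairs by r and 28 by Spearman's rho had an exact permutation p, adjusted over the 45, below 0.05. The highest r was that of C1qa and C1qb (r = 0.987, exact permutation p = 1.5e-04, adjusted 0.00195; rho = 0.929, p = 0.00223, adjusted 0.0100; n = 8). The lowest was that of Cx3cr1 and C1qa (r = 0.605, exact permutation p = 0.0495, adjusted 0.0495; rho = 0.714, p = 0.0576, adjusted 0.0765). Without the 2 libraries farthest from the median of the first gene, the pairs had r between 0.121 and 0.954, with 3 below 0.5. All points share the same libraries, size factors and tissue composition. Floxed 1, floxed 4 and Adipoq-F2-KO 1 were the 3 lowest libraries for 9 of the 10 markers, and Adipoq-F2-KO 4 was the highest for 7.

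The same 3 libraries were also the poorest in smooth muscle transcripts, with summed levels of 269.6, 302.6 and 508.4, against 1786 to 21230 in the other 5. Over the 8 libraries the smooth muscle level (mean log2 value of the 9 markers) was compared with each macrophage marker, with exact permutation p-values adjusted over the 10 markers. Adjusted p was below 0.05 for 5 markers by Pearson's r and for 1 by Spearman's rho. Cd163 followed it most closely (r = 0.966, exact permutation p = 9.9e-05, adjusted 9.9e-04; rho = 0.970, p = 6.0e-04, adjusted 0.00595), and its r was 0.985 without floxed 1 and floxed 4, the 2 libraries farthest from the median.

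Cx3cr1 (r = 0.908, adjusted exact permutation p = 0.0155; rho = 0.810, adjusted 0.0720), Cd68 (r = 0.863, adjusted exact permutation p = 0.0155; rho = 0.786, adjusted 0.0720) and Mrc1 (r = 0.863, adjusted exact permutation p = 0.0173; rho = 0.714, adjusted 0.0720) came next. Without the same 2 libraries their r was 0.815, 0.768 and 0.690. Adgre1 (r = 0.788, adjusted exact permutation p = 0.0326; rho = 0.714, adjusted 0.0720) had an r of 0.568 without them. The other 5 markers had an adjusted p above 0.05 by r and by rho. These were Lyz2 (r = 0.739, adjusted exact permutation p = 0.0602; rho = 0.643), C1qc (r = 0.697, adjusted exact permutation p = 0.0602; rho = 0.714), C1qa (r = 0.641, adjusted exact permutation p = 0.0722; rho = 0.738), Csf1r (r = 0.640, adjusted exact permutation p = 0.0787; rho = 0.738) and C1qb (r = 0.626, adjusted exact permutation p = 0.0787; rho = 0.643). Without floxed 1 and floxed 4 their r was 0.208, 0.432, 0.333, 0.263 and 0.096, so that what relation they showed rested on those libraries. Within the 5 libraries above 10000000 counts r ranged from 0.646 for C1qa to 0.989 for Mrc1, and the 3 shallow libraries were too few for a value.

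**Figure D4:**
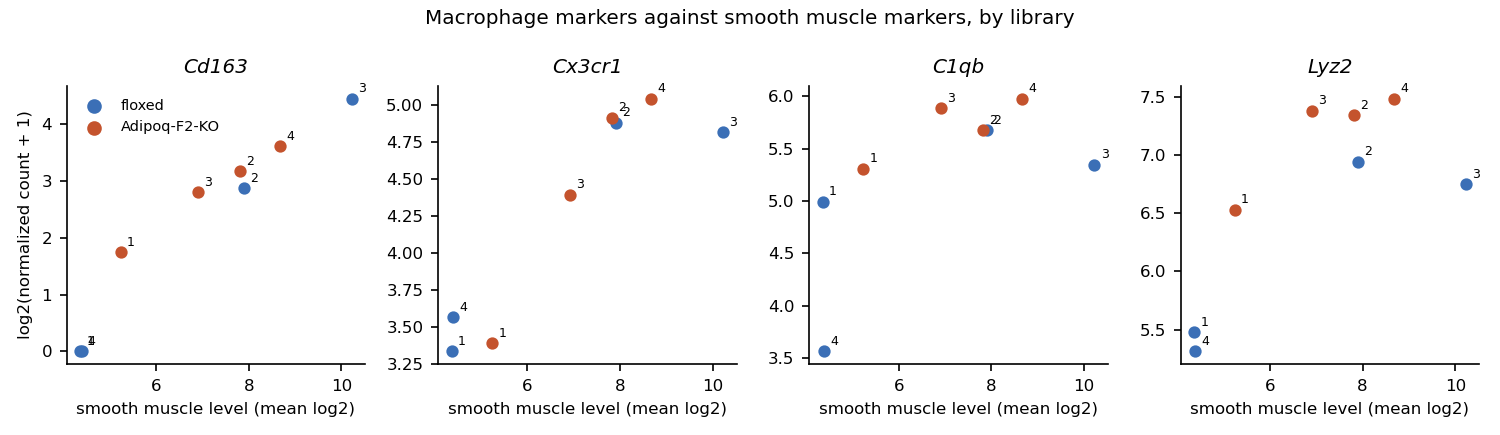
Log2(normalized count + 1) of 4 macrophage markers against the smooth muscle level (mean log2 value of 9 smooth muscle markers), with 1 point per library numbered by replicate, floxed in blue and Adipoq-F2-KO in orange. Cd163 followed the smooth muscle level over its whole range (r = 0.966), whereas C1qb and Lyz2 were at their lowest in floxed 4 and stood lower in floxed 3 than in floxed 2 and in Adipoq-F2-KO 2, 3 and 4, which had less smooth muscle.

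The 9 smooth muscle markers all had a DESeq2 estimate below 0 (median log2 fold change -0.92, none with an unadjusted p below 0.05), and floxed 3 held the highest level. On the mean log2 scale the smooth muscle level was 4.4, 7.9, 10.2 and 4.4 in floxed libraries 1 to 4. It was 5.2, 7.8, 6.9 and 8.7 in Adipoq-F2-KO libraries 1 to 4. Apart from floxed 3, no floxed library was above the Adipoq-F2-KO range, and no estimate without floxed 3 is given here for these markers. Acta2, for example, was at 1158 ± 1873 normalized counts in floxed and 574 ± 501 in Adipoq-F2-KO libraries (SD, n = 4). Its values were 43.0, 615.6, 3938 and 37.2 in floxed libraries 1 to 4, so that the floxed mean rested on floxed 3. With the smooth muscle level as a covariate the macrophage markers kept estimates above 0 with a median log2 fold change of 0.56, Lyz2 had a log2 fold change of 0.89, and C1qc joined Lyz2 below an unadjusted p of 0.05, with a DESeq2 adjusted p = 0.9999, where 1.86% of all tested genes were higher at that unadjusted p.

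Several lists of other immune markers also had estimates mostly above 0. All 7 tested B cell markers of 8 had an estimate above 0, with a median log2 fold change of 1.15, and their summed normalized counts were 21.7 to 394.8 in floxed and 154.7 to 585.3 in Adipoq-F2-KO libraries, lowest in floxed 1 and floxed 4. All 7 MHC class II genes, of antigen-presenting cells and of stimulated epithelium, had an estimate above 0 (median 0.76), with sums of 4398 to 23750 in floxed and 16380 to 33050 in Adipoq-F2-KO libraries. The 4 tested dendritic cell markers of 8 were likewise above 0 (median 0.62), with sums of 295.6 to 409.9 and 338.4 to 546.6. Of the 6 neutrophil markers none was tested. S100a8 was at 0 in every library, S100a9, Ly6g and Cxcr2 did not exceed 3 counts, Retnlg did not exceed 4 and Csf3r 11, and the list summed to 3.10 to 8.43 normalized counts in floxed and 2.37 to 13.2 in Adipoq-F2-KO libraries. T cell and plasma cell markers had 6 of 8 and 2 of 4 tested genes above 0 (median log2 fold change 0.20 and 0.03). The T cell markers below 0 were Cd3e at -0.07 and Cd8a at -0.03, and the highest was Cd4 at 1.10. Of the 5 general leukocyte markers 4 were above 0 (median 0.26). None of these lists held a gene with an adjusted p below 0.05 by DESeq2, and their part in the differences of the macrophage markers was not tested.

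**Figure D5:**
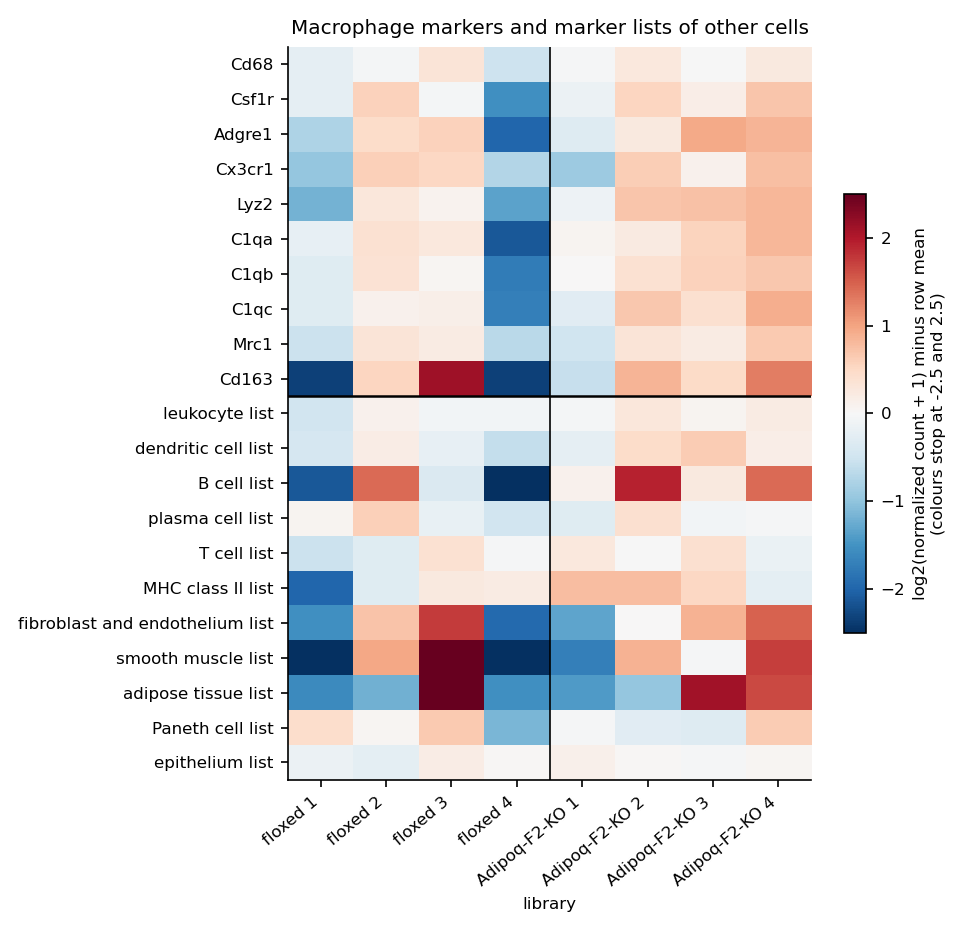
Centred log2(normalized count + 1) of the 10 macrophage markers (above the line) and the mean over each list of markers of other cells (below), for the 4 floxed and 4 Adipoq-F2-KO libraries, with red above and blue below the row's own mean. Floxed 1 and floxed 4 were low in most macrophage markers, B cell markers and smooth muscle markers, while floxed 3 was the highest in smooth muscle and adipose markers.

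The markers of adipose tissue, where the Cre is active, summed to 10.1 to 579.3 normalized counts in floxed and 11.1 to 266.3 in Adipoq-F2-KO libraries, with the highest sums in floxed 3, Adipoq-F2-KO 3 and Adipoq-F2-KO 4. The fibroblast and endothelium markers summed to 107.6 to 1658 and 217.9 to 1181. With their mean level as a covariate, an alternative chosen after seeing the data, the median log2 fold change of the macrophage markers was 0.50 and the same pair, Lyz2 and C1qc, had an unadjusted p below 0.05, as did 1.45% of all tested genes in the higher direction. The 6 Paneth cell markers, among them Lyz1, were evenly divided (3 higher, 3 lower, median log2 fold change -0.02).

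Beyond the markers, 96 genes in 8 lists of macrophage biology were examined, of which 58 were fitted. DESeq2 gave a p for 57 of them and none for Nos2, at 4592 normalized counts in floxed 3. Of these, 41 had an estimate above and 17 below 0, 3 were higher and 4 lower at an unadjusted p below 0.05, and none had an adjusted p below 0.05. Among all tested genes 1.65% were higher and 1.38% lower at that unadjusted p. Of the 58, 9 had a mean normalized count above that of Ptprc.

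Among growth and survival signals, 8 of 11 tested genes had an estimate above 0. Csf1, the main ligand of the Csf1r product, was at 13.3, 30.04, 46.0 and 16.3 normalized counts in floxed and 11.1, 39.1, 28.03 and 65.8 in Adipoq-F2-KO libraries (log2 fold change 0.47 ± 0.55 SE). Il34, the other ligand, was at 38.8 ± 9.3 and 31.3 ± 8.4 (SD, n = 4; log2 fold change -0.36 ± 0.32 SE), and its exons overlap antisense genes. Cx3cl1, which encodes fractalkine, the ligand of the Cx3cr1 product, was far more abundant than its receptor, at 2316 ± 219 and 2147 ± 208 (SD, n = 4; log2 fold change -0.11 ± 0.11 SE). Il10ra, the receptor chain through which interleukin 10 restrains intestinal macrophages, was at 15.2, 16.3, 23.0 and 9.29 in floxed and 19.0, 31.6, 30.03 and 41.4 in Adipoq-F2-KO libraries. Only Adipoq-F2-KO 1 was within the floxed range, and the log2 fold change was 0.97 ± 0.40 (SE; DESeq2 adjusted p = 0.9998).

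Among 9 tested myeloid transcription factors, 4 had an estimate above and 5 below 0. The lipid-sensing receptor LXR alpha, Nr1h3, had a log2 fold change of -0.28 ± 0.13 (SE; DESeq2 adjusted p = 0.9998).

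Of 19 phagocytic and pattern receptors, 8 were tested and 6 of these had an estimate above 0, while Marco, Vsig4 and Trem2 did not exceed 3 counts in any library. Mertk, a receptor for dying cells, was at 3386 to 5153 normalized counts and had a log2 fold change of -0.27 ± 0.13 (SE; DESeq2 adjusted p = 0.9998). Stab1, a scavenger receptor of perivascular macrophages and of endothelium, was at 378.6, 535.5, 483.1 and 544.1 in floxed and 288.9, 388.1, 328.3 and 338.4 in Adipoq-F2-KO libraries. Adipoq-F2-KO 2 alone was within the floxed range, and the log2 fold change of -0.53 ± 0.16 (SE) had an unadjusted DESeq2 p of 0.00114 and an adjusted p of 0.602. Neither Mertk nor Stab1 was low in floxed 4, unlike the macrophage markers. Mean normalized counts of Mertk (4060), Stab1 (411) and Nr1h3 (584) were above that of the most counted macrophage marker, Lyz2 (114). The cell types these 3 genes came from were not tested. Of the other perivascular and deep resident genes, Cbr2, Cd209f and Cd209d did not exceed 3 counts.

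Little of the monocyte recruitment list was measurable. Ccl2, Ccl7, Ccl8, Ccl12 and Chil3 did not exceed 3 counts in any library, and Ccr2, the receptor by which monocytes leave the blood, held 1 to 12 counts per floxed and 2 to 8 per Adipoq-F2-KO library and was not tested. Of 4 tested genes 3 had an estimate above 0.

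Among early complement genes and complement receptors, 9 of 10 tested had an estimate above 0, with a median log2 fold change of 0.16. C1ra and C1s1, which encode the proteases that join C1q in the C1 complex, had log2 fold changes of 0.16 ± 0.83 and 0.26 ± 0.66 (SE), and floxed 3 was the highest of the 8 libraries for both. C3ar1, the receptor for the C3a fragment, was at 9.09, 15.3, 14.6 and 3.87 in floxed and 12.6, 18.6, 36.0 and 28.2 in Adipoq-F2-KO libraries (log2 fold change 1.14 ± 0.54 SE, DESeq2 adjusted p = 0.9998). Of the 10 tested adaptor and oxidase genes of myeloid cells 8 had an estimate above 0 (median 0.15), and of the 4 fitted activation genes, Nos2 included, 2 did, with Il6, Il12b and Retnla at 3 counts or fewer in every library.

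In the lists of other cells, 4 of 69 tested genes had an unadjusted p below 0.05, each higher in Adipoq-F2-KO, against 1.65% of all tested genes. The genotypes did not overlap for 2 of the 69, Clec9a and Sdc1, both higher in Adipoq-F2-KO, against 1.1% of all tested genes. Cd4, which marks helper T cells and some macrophages, was at 21.2, 39.5, 25.1 and 18.6 in floxed and 33.2, 69.4, 48.1 and 77.1 in Adipoq-F2-KO libraries (log2 fold change 1.10 ± 0.38 SE, DESeq2 adjusted p = 0.976). Clec9a, of cross-presenting dendritic cells, was at 5.42 to 8.48 in floxed and 10.3 to 20.7 in Adipoq-F2-KO libraries (log2 fold change 1.07 ± 0.49 SE, DESeq2 adjusted p = 0.9998), but its exons overlap those of Clec1b. Sdc1, the syndecan of plasma cells and epithelium, was at 269.8 to 283.0 in floxed and 283.9 to 334.4 in Adipoq-F2-KO libraries (log2 fold change 0.19 ± 0.11 SE). H2-DMa, of the antigen-loading machinery, and Cldn7, an epithelial tight junction gene, had log2 fold changes of 0.66 ± 0.30 and 0.22 ± 0.10 (SE), and H2-DMa overlaps the more abundant Brd2.

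Finally, the tested genes with a mean normalized count of at least 50 were ranked by their likeness to 2 patterns, as Pearson's r of log2(normalized count + 1) over the 8 libraries, out of 10167 genes. The 5 most like the mean of the C1q chains were Lbh (0.985), Sirpa (0.979), Apoe (0.957), Adamdec1 (0.955) and Mef2c (0.954). Sirpa encodes the receptor by which phagocytes read CD47, and Apoe and Adamdec1 have been described in tissue macrophages. Which cells of the mucosa gave the transcripts of these 5 genes was not tested. The 5 most like the mean of Mrc1 and Cd163 were Rasa3 (0.992), Col3a1 (0.991), Msn (0.991), Lmod1 (0.986) and Col1a1 (0.985), of which Col3a1 and Col1a1 encode fibrillar collagens and Lmod1 a smooth muscle protein that was on the smooth muscle list. The values are the highest of a search over 10167 genes in the same 8 libraries and carry no test.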

How the data were processed

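Jejunal mucosal RNA was profiled in 4 FFA2 fl/fl and 4 Adipoq-F2-KO libraries (poly-A, stranded kit, single-end reads of 75 bp). Per the labels, the authors trimmed with Trimmomatic, aligned with STAR and counted with featureCounts, and the submitters' processing notes list GRCm38 (mm10). Tool versions, annotation release and strand setting were not given in the sources used here. The deposited values were raw counts per gene, 1 set per library. Of 56980 identifiers 52125 matched GENCODE M21, which gave symbols, lengths and coordinates.

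Genes that reached 10 counts in 4 or more libraries were tested with DESeq2 1.42.0 in R 4.3.3 (genotype only, two-sided Wald tests, Benjamini-Hochberg adjustment over all tested genes). Normalized counts were divided by DESeq2 size factors, and log2 levels used a pseudocount of 1. Correlations used exact permutation of pairings (scipy 1.17.1). edgeR 4.0.16, limma 3.58.1 and other settings served as alternatives, and the fitting was tested on simulated data. Intervals of fold changes come from DESeq2 standard errors and include the spread between libraries, while Wilson intervals and floors cover counting error only, as the reads carried no molecular identifiers.

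The members and gene lists were chosen with earlier results of these data known. Named were all 10 markers, up to 2 genes per list with the smallest unadjusted p below 0.05, Ptprc, Lyz1, Csf1, Il34, Cx3cl1, Spi1, Ccr2, C1ra and C1s1, and the 5 genes most like each of 2 patterns. Acta2, Cd3e, Cd8a, Nos2, Sdc1, Retnlg, Csf3r and genes at 3 counts or fewer were named after their values were seen. Results for 2 genes that this rule names are not reported here.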

Additional observations from a re-analysis of the deposited data

How the results depend on the processing

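The count of macrophage markers with an adjusted p below 0.05 was 0 under all 17 alternatives, and the median log2 fold change of the markers stayed above 0, between 0.26 (without floxed 4) and 0.88 (without floxed 2). The count at an unadjusted p below 0.05, 1 by DESeq2, was 1 with edgeR, limma-voom, TMM factors, no filter and a mean count of 50. It was 0 in the 5 deeper libraries and 2 with the smooth muscle covariate or the fibroblast and endothelium covariate, the last chosen after seeing the data. It ranged from 0 to 4 when each of the 8 libraries was omitted in turn (0 without floxed 1 or floxed 4, 2 without floxed 3 or Adipoq-F2-KO 1, and 4 without floxed 2, namely Csf1r, Lyz2, C1qb and C1qc), while 0.921% (without floxed 4) to 4.54% (without floxed 3) of all tested genes were higher at that p, 1.89% without floxed 2. Of the genes in the macrophage biology lists, 7 had an unadjusted p below 0.05. With a mean count of 50 there were 4, where fewer genes were tested, and between 1 (without Adipoq-F2-KO 4) and 18 (without floxed 3) when 1 library was left out (2 without floxed 4, 3 without floxed 1 or Adipoq-F2-KO 3, 11 without floxed 2). The share of all genes given a p that fell below 0.05 was 3.04% by DESeq2 and 8.29% without floxed 3. Over all genes, 6 had an adjusted p below 0.05 by DESeq2, 109 without floxed 3, 78 in the 5 deeper libraries, 18 without floxed 2, 11 with the replicate block, 3 without a filter, 2 by edgeR or without floxed 4, and 1 by limma-voom or without floxed 1. Apart from the numbers of genes tested, the cause was not tested. The order of levels per length was the same for 7 of the 8 libraries left out and placed 8 of 10 markers alike with the longest transcript or without floxed 4. Shared windows of Lyz2 and Lyz1 went from 5.96% to 15.4% at 50 bases, and 4 instead of 5 markers passed against smooth muscle on CPM; this was not tested in the 5 deeper libraries, for which r is given as a description.

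Deviations of libraries with the same number in their titles had correlations of 0.542, 0.294, 0.011 and -0.423, and not every library correlated best with its own number. The labels do not pair the libraries, and such correlations cannot show whether they were paired. The replicate block therefore joined libraries by title number only. With the replicate block the count of markers at an adjusted p below 0.05 was 0, that at an unadjusted p 1 (Lyz2, DESeq2 adjusted p = 0.695), and the median log2 fold change 0.76.

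Counts of the markers were low, with 237 to 1131 reads per library over all 10, the fewest in floxed 4. Adgre1, Cx3cr1 and Cd163 rested on at most 17 reads each in every library but floxed 2 and Adipoq-F2-KO 2. In normalized counts, no library was far enough from the rest of its genotype in a marker to pass Dixon's test (20 groups tested). With 4 libraries per genotype the test needs a gap above 0.829 of the range. It therefore cannot show that no library stood out, and its outcome can differ on a log2 scale.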
